A study of Mus musculus with 24 samples.

Results

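The 8 genes *Sox4*, *Sox11*, *Sox12*, *Sox5*, *Sox6*, *Sox13*, *Sox8* and *Sox9* encode the SOXC (*Sox4*, *Sox11*, *Sox12*), SOXD (*Sox5*, *Sox6*, *Sox13*) and SOXE (*Sox8*, *Sox9*) transcription factors. They were chosen by gene symbol, with earlier results of these data known. They are 8 of 26411 genes counted in messenger RNA of neural stem and progenitor cells (NSPCs), the dividing cells from which cortical neurons and glia arise. The cells came from C57BL/6 mouse embryos at E12.5, from the dorsal telencephalon, which later forms the cerebral cortex. There were 3 genotypes, wildtype (*Kat6a*+/+), heterozygous for the mutant allele (*Kat6a*+/-) and homozygous for it (*Kat6a*-/-). *Kat6a* encodes a histone acetyltransferase, and per the study's methods the mutant allele lacks exons, which leads to a premature stop within the catalytic domain. Each genotype was sampled after 3 days in medium with FGF2 and EGF (proliferating NSPCs) and after 3 days in serum and no growth factors on coated plastic (differentiating NSPCs), with 4 libraries per genotype and condition and 24 in all. RNA was extracted with a different kit in each condition and its effect cannot be told apart from that of the condition.

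SOX proteins bind DNA through a domain of the high mobility group (HMG) type, which bends the double helix, and the families differ in what lies outside that domain. SOXC proteins carry a transactivation domain and are best known for switching on neuronal genes in cells that leave the progenitor state. SOXD proteins have a coiled coil for pairing with each other and no activation domain of their own, and act with other factors on the timing of cortical neuron and oligodendrocyte production. SOXE proteins pair through another domain, and *Sox9* is known for maintaining neural stem cells and starting gliogenesis, *Sox8* for a role in the oligodendrocyte lineage. *Sox9*, *Sox5* and *Sox6* also act together on collagen genes in cartilage.

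The 3 SOXC genes were lower together in differentiating *Kat6a*-/- NSPCs, as described below, and the 250 bases upstream of their annotated start are therefore shown. The sequences were copied from a RefSeq promoter table on assembly GRCm38.p6, an earlier assembly than the mm39 assembly of the counts, and run 5′ to 3′ on the gene's own strand, which is the minus strand for all 3 genes. They lie at chr13:28953700-28953949 (*Sox4*), chr12:27342719-27342968 (*Sox11*) and chr2:152398047-152398296 (*Sox12*). Capitals mark the letters CCAAT on either strand, so that ATTGG is a CCAAT on the opposite strand.
Sox4: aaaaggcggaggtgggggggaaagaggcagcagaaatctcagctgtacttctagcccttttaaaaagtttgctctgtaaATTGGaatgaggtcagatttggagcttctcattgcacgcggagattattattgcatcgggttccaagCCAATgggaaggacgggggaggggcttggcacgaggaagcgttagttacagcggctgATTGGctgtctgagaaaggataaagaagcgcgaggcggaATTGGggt
Sox11: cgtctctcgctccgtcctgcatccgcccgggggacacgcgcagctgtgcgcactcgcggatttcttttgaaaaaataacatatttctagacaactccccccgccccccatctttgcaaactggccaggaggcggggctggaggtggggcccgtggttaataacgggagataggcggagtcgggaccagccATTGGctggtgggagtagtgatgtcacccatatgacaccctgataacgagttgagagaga
Sox12: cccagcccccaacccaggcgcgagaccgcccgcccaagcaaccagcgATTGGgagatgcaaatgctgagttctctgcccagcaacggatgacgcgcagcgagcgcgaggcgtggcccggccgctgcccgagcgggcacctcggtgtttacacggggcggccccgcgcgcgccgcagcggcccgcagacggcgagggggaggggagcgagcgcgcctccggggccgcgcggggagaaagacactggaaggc

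The stretch before *Sox4* held 4 CCAAT matches, which began 171, 104, 47 and 8 bases before the start. Those before *Sox11* and *Sox12* held 1 match each, 60 and 203 bases before the start. Of 32851 promoters of the same table and length, 33.8% held at least 1 match, so that the presence of the letters was common. No match was found before *Sox5*, *Sox13* and *Sox8*, *Sox6* had 6 annotated starts of which some held a match, and *Sox9* had no entry. CCAAT was 1 of 4 short motifs searched for, and the only motif found before each of *Sox4*, *Sox11* and *Sox12*. Another motif was found before *Sox11* and *Sox12* but not before *Sox4*, and the rest before none of these genes. CCAAT alone is shown, so its presence before all SOXC genes is a selected result. The CCAAT matches are letters in a window and say nothing about binding.

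Total counts ranged from 7826660 to 40838203 per library, with the 4 proliferating *Kat6a*-/- libraries between 7826660 and 9775640. Each library came from 1 embryo, and 5 litters contributed to the proliferating and 7 to the differentiating libraries. The deleted exons are a fraction of the *Kat6a* transcript and whole-gene counts cannot check the genotype: *Kat6a* was at 373 to 409 CPM (counts scaled to library size with TMM factors) in proliferating *Kat6a*+/+ and at 334 to 389 CPM in proliferating *Kat6a*-/- libraries, and at 239 to 292 and 160.0 to 253 CPM in differentiating libraries. Reads of 4 Y-linked genes summed to over 100 CPM in either condition in 3 of 4 *Kat6a*+/+, 1 of 4 *Kat6a*+/- and 1 of 4 *Kat6a*-/- libraries, and the part of sex in the results was not tested. The NSPC markers *Sox2*, *Nes* and *Vim* belong to a list of 8 radial glia markers whose summed level was 5146 to 11802 CPM over all 24 libraries, while 6 microglia markers summed to at most 8.25 CPM. In bulk RNA, fewer cells of a type and less RNA per cell cannot be told apart.

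All 8 genes were expressed in wildtype NSPCs. Levels of different genes are compared per kilobase of counted length (RPKM). In proliferating *Kat6a*+/+ NSPCs *Sox4* had the highest level of the 8 at 118 ± 7.01 RPKM (mean ± SD, n = 4 here and below), followed by *Sox9* at 64.8 ± 2.11, *Sox8* at 42.2 ± 3.45, *Sox11* at 34.3 ± 2.39, *Sox12* at 27.7 ± 2.76 and *Sox6* at 15.5 ± 2.65 RPKM. *Sox13* and *Sox5* were lowest at 9.51 ± 0.975 and 9.30 ± 1.24 RPKM. Neighbours in this order did not overlap over the 4 libraries, except *Sox11* with *Sox12* and *Sox13* with *Sox5*. In differentiating *Kat6a*+/+ NSPCs the order was *Sox4* (281 ± 49.1 RPKM), *Sox8* (60.7 ± 18.4), *Sox9* (55.4 ± 7.25), *Sox12* (25.1 ± 1.63), *Sox6* (16.8 ± 1.58), *Sox11* (12.4 ± 2.70), *Sox5* (6.74 ± 0.891) and *Sox13* (3.33 ± 0.525), with overlap of *Sox8* with *Sox9* and of *Sox6* with *Sox11*. *Sox4* made up 36.7% ± 0.949 of the RPKM summed over the 8 genes in proliferating and 60.7% ± 1.86 in differentiating *Kat6a*+/+ NSPCs. In differentiating *Kat6a*-/- NSPCs its share was 52.1% ± 2.25.

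**Figure D1:**
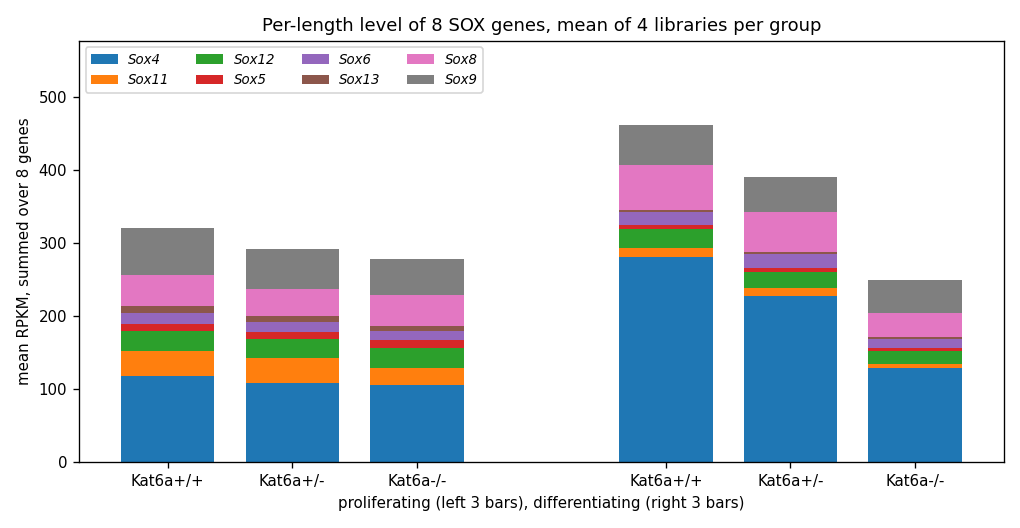
Mean RPKM (4 libraries per group) of each of the 8 genes, stacked, for the 3 genotypes in proliferating (left) and differentiating (right) NSPCs. *Sox4* is the bottom segment, at 118, 109 and 105 RPKM in proliferating and 281, 227 and 129 RPKM in differentiating *Kat6a*+/+, *Kat6a*+/- and *Kat6a*-/- NSPCs.

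The first question was how loss of *Kat6a* affects these genes in differentiating NSPCs. By the study's design, a limma-trend fit with library quality weights, all 8 genes were lower in *Kat6a*-/- than in *Kat6a*+/+ NSPCs at a false discovery rate (FDR) under 0.05, beside 54.4% of all 13339 genes tested called in either direction and 27.7% called lower. The median log2 fold-change of the 8 genes was -0.89, against -0.02 over all genes tested. *Sox4*, *Sox11*, *Sox12* and *Sox8* had all 4 *Kat6a*-/- libraries below all 4 *Kat6a*+/+ libraries, as 14.7% of all genes tested did. The other 4 genes, *Sox5*, *Sox6*, *Sox13* and *Sox9*, had overlapping libraries, and their calls were lost without the quality weights, where 4 of 8 genes stood beside 23.2% of all genes called.

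*Sox4*, the SOXC gene with the highest level, stood at 1566, 1017, 1349 and 1439 CPM in differentiating *Kat6a*+/+ libraries and at 458, 695, 580.5 and 730.4 CPM in *Kat6a*-/- libraries (replicates 1 to 4 here and below). The groups were far apart, with the highest *Kat6a*-/- library below the lowest *Kat6a*+/+ library. The fitted log2 fold-change was -1.29 ± 0.13 (SE), with an FDR of 1.03e-05. *Sox11*, which encodes the SOXC protein of newborn neurons together with SOX4, stood at 128, 73.6, 108 and 109 CPM in *Kat6a*+/+ and at 61.7, 26.7, 45.6 and 34.8 CPM in *Kat6a*-/- libraries. The groups did not overlap, although the lowest *Kat6a*+/+ and the highest *Kat6a*-/- library were closer than the SD of either group (22.8 and 15.1 CPM). Its log2 fold-change was -1.30 ± 0.21 (FDR 0.000284). *Sox12*, the weakest activator of the family, had the smallest change of the 3, from 117, 101, 112 and 117 CPM in *Kat6a*+/+ to 62.8, 89.1, 77.4 and 99.1 CPM in *Kat6a*-/- libraries, with a log2 fold-change of -0.55 ± 0.08 (FDR 0.000161). *Kat6a*-/- replicate 4 was close to *Kat6a*+/+ replicate 2, and the call was lost without *Kat6a*-/- replicate 3 (-0.48, FDR 0.0719).

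*Sox8*, a SOXE gene of the oligodendrocyte lineage, stood at 246, 129, 209 and 144 CPM in differentiating *Kat6a*+/+ and at 92.4, 57.0, 122 and 121 CPM in *Kat6a*-/- libraries. The spread was wide in both groups and the ranges just did not overlap. The log2 fold-change was -0.85 ± 0.20 (FDR 0.00300), and without *Kat6a*-/- replicate 1 it was -1.27 with an FDR of 0.0678. *Sox9*, the other SOXE gene, behaved differently from library to library: *Kat6a*+/+ libraries stood at 238, 208, 204 and 269 CPM and *Kat6a*-/- libraries at 73.8, 340.1, 116 and 212 CPM. Replicate 2 was the highest of all 8 libraries and replicate 1 the lowest, so that the *Kat6a*-/- group enclosed the *Kat6a*+/+ group. The weighted log2 fold-change was -0.92 ± 0.21 (FDR 0.00270), whereas the fit without weights gave -0.53 (FDR 0.320) and the fits without *Kat6a*-/- replicate 1 or 3 gave -0.15 (FDR 0.823) and -0.17 (FDR 0.847).

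Among the SOXD genes, *Sox5* stood at 57.2, 42.5, 53.7 and 46.8 CPM in *Kat6a*+/+ and at 14.1, 52.0, 17.7 and 41.7 CPM in *Kat6a*-/- libraries. *Sox6* stood at 202, 202, 188 and 165 CPM in *Kat6a*+/+ and at 93.6, 188, 98.1 and 173 CPM in *Kat6a*-/- libraries. For both genes *Kat6a*-/- replicates 1 and 3 lay far below every *Kat6a*+/+ library, and replicates 2 and 4 lay within or close to the *Kat6a*+/+ range. *Sox13* stood at 12.4, 9.12, 12.02 and 13.5 CPM in *Kat6a*+/+ and at 6.95, 12.1, 7.59 and 7.62 CPM in *Kat6a*-/- libraries, where replicate 2 alone was within the *Kat6a*+/+ range. The weighted log2 fold-changes were -1.44 ± 0.21 (FDR 0.000138) for *Sox5*, -0.85 ± 0.14 (FDR 0.000346) for *Sox6* and -0.65 ± 0.13 (FDR 0.00117) for *Sox13*. Without weights they were -0.87 (FDR 0.0970), -0.52 (FDR 0.120) and -0.47 (FDR 0.116). Each of the 3 calls was also lost on leaving out *Kat6a*-/- replicate 1 or replicate 3.

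The quality weights gave *Kat6a*-/- replicate 3 a share of 69.0% and replicates 1, 2 and 4 shares of 16.8%, 4.22% and 10.0% of the weight of that group, so that the fitted *Kat6a*-/- level rests mostly on replicate 3. Markers of other cells moved between the same libraries. The summed level of 8 astrocyte markers, called higher for 1 and lower for 3 of them, was 2267 to 3244 CPM in differentiating *Kat6a*+/+ libraries and 1895, 7065, 2159 and 3580 CPM in the *Kat6a*-/- libraries, with none at 0. It was highest in replicate 2, the library in which *Sox9*, *Sox5*, *Sox6* and *Sox13* were highest and *Sox11* and *Sox8* lowest in that group. The summed level of 8 mesenchymal and meningeal markers was 32.6 to 66.2 CPM in *Kat6a*+/+ libraries, against 276, 43.5, 260 and 179 CPM in those of *Kat6a*-/-, with all 4 tested members called higher and *Lum* at 0 in every *Kat6a*-/- library. The 8 dividing cell markers were all called lower, at a summed 652 to 1094 CPM in *Kat6a*+/+ and 95.9 to 258 CPM in *Kat6a*-/- libraries. Of 8 neuron markers 1 was higher and 4 lower, at 545 to 716 and 471 to 784 CPM in sum, and of 6 tested oligodendrocyte lineage markers 1 was higher and 4 lower, at 1201 to 1421 and 698 to 1232 CPM. Radial glia markers had 3 higher and 3 lower of 8, with a median log2 fold-change of -0.39. Their summed level, which follows the most abundant members, went the other way. It was 5943 to 7571 CPM in *Kat6a*+/+ and 8209.8 to 11802 CPM in *Kat6a*-/- libraries, without overlap. Of the remaining lists, neural crest and pigment cell markers had 1 higher and 3 lower of 6 tested, the 1 endothelial marker tested was lower, and no microglia marker passed the filter. By flow cytometry of differentiating cultures, the study found fewer cells with the neuronal protein ßIII-tubulin in *Kat6a*+/- and *Kat6a*-/- than in wildtype NSPCs. It found no significant difference in the share of cells with the astrocyte protein GFAP or the oligodendrocyte epitope O4. The part of the markers above in the differences of the 8 SOX genes was not tested.

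**Figure D2:**
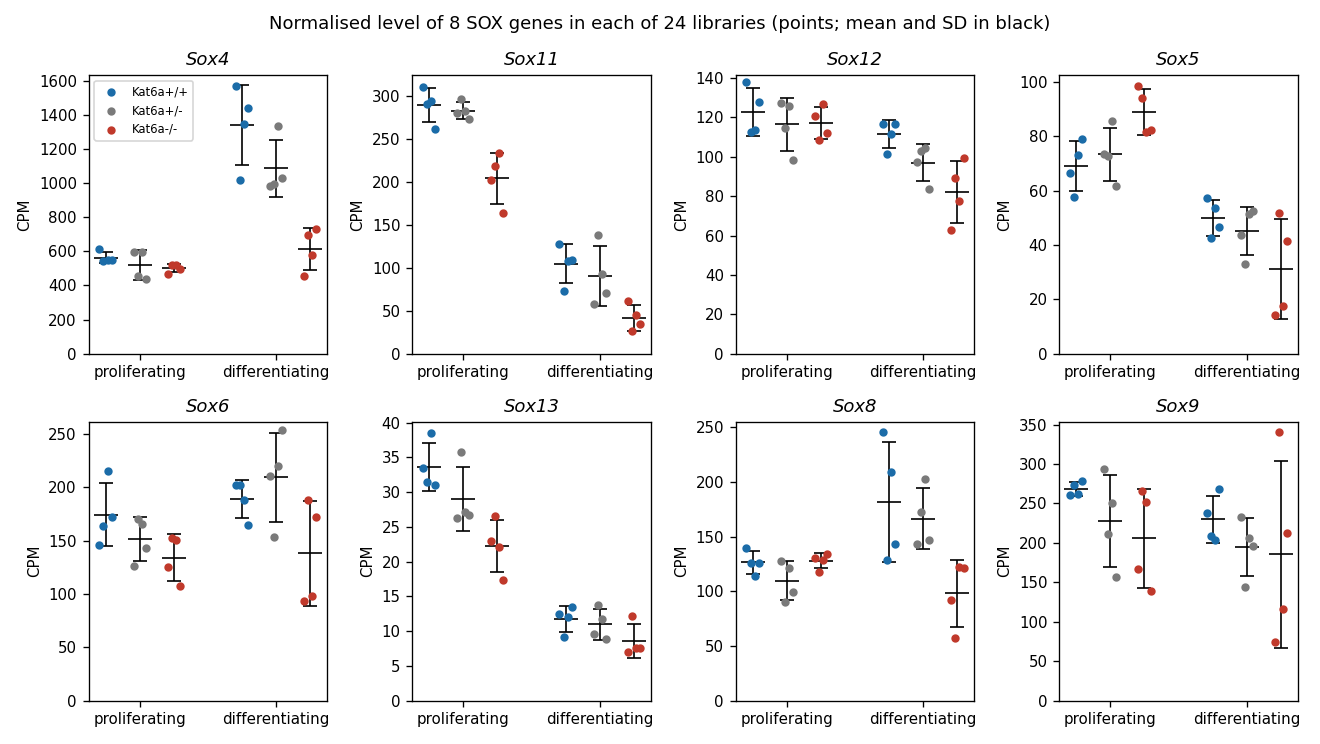
CPM (linear axis) of each gene in all 24 libraries, coloured by genotype and grouped by condition, with the mean and SD of each group of 4 in black. In differentiating NSPCs the *Kat6a*-/- points of *Sox4*, *Sox11*, *Sox12* and *Sox8* lie below all *Kat6a*+/+ points, whereas those of *Sox5*, *Sox6* and *Sox9* split into 2 low and 2 higher libraries.

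In proliferating NSPCs the same comparison gave a smaller and mixed result. *Sox11*, *Sox6* and *Sox13* were lower and *Sox5* was higher in *Kat6a*-/- than in *Kat6a*+/+ NSPCs, and *Sox4*, *Sox12*, *Sox8* and *Sox9* did not pass the test. These 4 of 8 genes called compare with 30.0% of the 12276 genes tested by limma-voom, of which 13.8% were called lower and 16.2% higher. The median log2 fold-change of the 8 genes was -0.21, against -0.00 over all genes tested. The libraries of the 2 genotypes did not overlap for *Sox11*, *Sox13* and *Sox5* and for *Sox4*, whose difference was not called, as was the case for 31.3% of all genes tested, 17.6% with the *Kat6a*-/- libraries lower and 13.7% with them higher.

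*Sox11* stood at 311, 291, 295 and 262 CPM in proliferating *Kat6a*+/+ and at 202, 218, 234 and 164 CPM in *Kat6a*-/- libraries. All *Kat6a*-/- libraries were below all *Kat6a*+/+ libraries, and the log2 fold-change was -0.46 ± 0.08 (FDR 0.00189). *Sox13* showed the largest fall of the 8, from 33.4, 31.4, 38.5 and 31.1 CPM to 23.0, 26.5, 22.1 and 17.4 CPM, with a log2 fold-change of -0.62 ± 0.12 (FDR 0.00217). Again the groups did not overlap. *Sox5*, a SOXD gene like *Sox13*, moved the other way, from 66.3, 57.6, 73.2 and 78.9 CPM to 98.4, 93.9, 81.5 and 82.4 CPM, a log2 fold-change of 0.40 ± 0.10 (FDR 0.0108). These 3 calls held with every library left out in turn and in each of the 6 other fits. *Sox6*, the remaining SOXD gene, stood at 145, 164, 216 and 172 CPM and at 126, 153, 151 and 107 CPM. The groups overlapped, the log2 fold-change was -0.40 ± 0.12 (FDR 0.0207), and the call was lost with edgeR (FDR 0.0845), and with DESeq2 (FDR 0.0637). It was also lost without replicate 3 of *Kat6a*+/+ (0.0940) and without replicates 1 (0.0579) or 4 (0.148) of *Kat6a*-/-, each value an FDR from limma.

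The other 4 genes had log2 fold-changes of -0.09 ± 0.09 for *Sox4* (FDR 0.460), -0.00 ± 0.08 for *Sox12* (FDR 0.994), 0.09 ± 0.10 for *Sox8* (FDR 0.482) and -0.33 ± 0.19 for *Sox9* (FDR 0.203). *Sox4*, the gene with the most counts, was at 563 ± 33.5 CPM in *Kat6a*+/+ and 503 ± 24.8 CPM in *Kat6a*-/- libraries. *Sox9* was even in *Kat6a*+/+ libraries (261, 273, 262 and 279 CPM) and uneven in *Kat6a*-/- libraries (166, 266, 252 and 139 CPM), where 2 libraries were far below and 2 within or near the *Kat6a*+/+ range. The summed astrocyte markers were higher in the proliferating *Kat6a*-/- libraries (1438 to 2275 CPM) than in the *Kat6a*+/+ libraries (786 to 979 CPM), with 5 of 7 tested markers called higher and none lower. The 6 microglia markers summed to 6.38 to 8.25 CPM in *Kat6a*-/- and 1.27 to 1.41 CPM in *Kat6a*+/+ libraries, with *Cx3cr1* and *Tyrobp* at 0 in both groups and the 1 marker tested called higher. Radial glia markers had 1 higher and 3 lower of 8, at 5146 to 7169 CPM in *Kat6a*-/- and 7144 to 8025 CPM in *Kat6a*+/+ libraries in sum, and dividing cell markers had 2 lower of 8, at 1636 to 2905 and 2866 to 3248 CPM. The part of these markers in the differences was not tested.

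**Figure D3:**
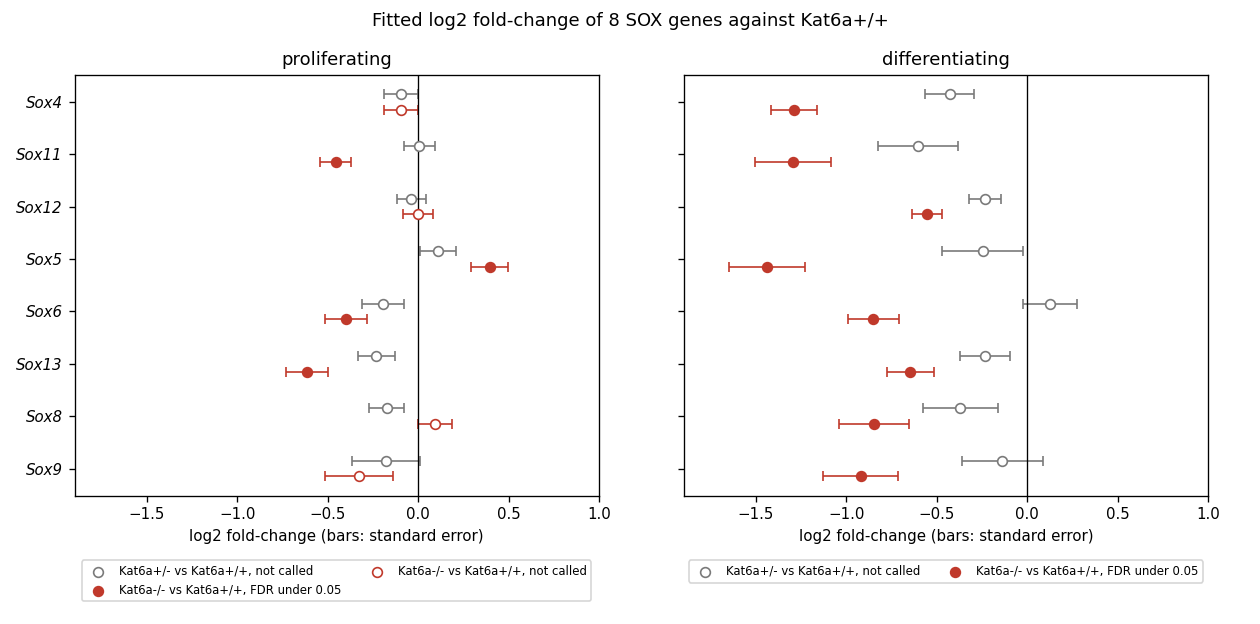
Fitted log2 fold-change (points) with its standard error (bars) of the 8 genes against *Kat6a*+/+ in proliferating and differentiating NSPCs, for *Kat6a*+/- (grey) and *Kat6a*-/- (red). Filled points have an FDR under 0.05: 4 *Kat6a*-/- estimates in proliferating and 8 in differentiating NSPCs, and no *Kat6a*+/- estimate.

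*Kat6a*+/- NSPCs were compared with wildtype to ask about the effect of 1 mutant allele. None of the 8 genes was called in either condition by limma, nor was any of the genes tested (0%), and none of the 8 genes was called by edgeR or DESeq2. At an unadjusted p under 0.05, 1 of 8 genes passed in proliferating NSPCs, beside 7.43% of all genes, and 3 of 8 in differentiating NSPCs, beside 14.4% of all genes. The 1 gene was *Sox13*, at 26.3, 35.8, 27.1 and 26.7 CPM in proliferating *Kat6a*+/- libraries, with a log2 fold-change of -0.23 ± 0.10 (FDR 0.663). The 3 genes were those of the SOXC family. *Sox4* stood at 985, 994, 1332 and 1030.5 CPM in differentiating *Kat6a*+/- libraries (log2 fold-change -0.43 ± 0.14, FDR 0.231), *Sox11* at 58.2, 138, 93.2 and 71.3 CPM (-0.60 ± 0.22, FDR 0.273) and *Sox12* at 97.2, 103, 104 and 83.8 CPM (-0.23 ± 0.09, FDR 0.275). The quality weights gave *Kat6a*+/- replicate 1 a share of 50.2% of its group, and the *Sox11* estimate was -0.16 without that library, -0.27 without weights and -0.21 with DESeq2. All 8 genes overlapped between *Kat6a*+/- and *Kat6a*+/+ libraries in both conditions, whereas 4.53% of all genes in proliferating and 2.79% in differentiating NSPCs did not. The remaining log2 fold-changes lay between -0.37 (*Sox8*) and 0.12 (*Sox6*) in differentiating and between -0.19 (*Sox6*) and 0.11 (*Sox5*) in proliferating NSPCs.

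Group means fell in steps from *Kat6a*+/+ over *Kat6a*+/- to *Kat6a*-/- for 5 of 8 genes in proliferating NSPCs, beside 36.2% of all genes, and for 7 of 8 genes in differentiating NSPCs, beside 27.3% of all genes. The exception in differentiating NSPCs was *Sox6*, with means of 189 ± 17.7, 209 ± 41.7 and 138 ± 49.1 CPM. *Sox5* rose in steps in proliferating NSPCs, with means of 69.0 ± 9.18, 73.5 ± 9.73 and 89.0 ± 8.43 CPM, as 28.0% of all genes did. Each of the 8 genes already had a lower mean in differentiating *Kat6a*-/- than *Kat6a*+/+ NSPCs, so that only the place of the *Kat6a*+/- mean was open. The shares over all genes also count genes that were not lower in *Kat6a*-/- NSPCs and are no like measure. The orders of means take no account of the spread between libraries. *Sox9* counts among the 7, with means of 230 ± 30.1, 195 ± 36.8 and 185 ± 118 CPM.

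Against *Kat6a*+/- NSPCs, *Kat6a*-/- NSPCs had lower *Sox11* (log2 fold-change -0.46 ± 0.08, FDR 0.00343) and lower *Sox13* (-0.38 ± 0.12, FDR 0.0422) in proliferating cultures, 2 of 8 genes beside 14.8% of all genes called and 6.30% called lower. The *Sox13* call was lost in most other fits. The proliferating *Kat6a*+/- libraries held *Sox11* at 281, 296, 282 and 273 CPM, all above the highest *Kat6a*-/- library, as 6.07% of all genes were. In differentiating cultures 7 of 8 genes were called lower by the weighted fit, beside 37.5% of all genes called and 18.5% called lower. The changes ranged from -0.32 ± 0.10 for *Sox12* (FDR 0.0235) to -1.19 ± 0.25 for *Sox5* (FDR 0.00338). *Sox8* was not called (-0.48 ± 0.23, FDR 0.120), although its libraries (143, 172, 203 and 147 CPM in *Kat6a*+/-) did not overlap with those of *Kat6a*-/-. *Sox4* was the other gene whose libraries did not overlap (-0.86 ± 0.15, FDR 0.00139), beside 9.48% of all genes with *Kat6a*-/- libraries all lower. Without quality weights *Sox4* and *Sox11* were called, beside 12.1% of all genes, and without *Kat6a*-/- replicate 1 or replicate 3 none of the 8 genes was called by the weighted limma fit.

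Between the conditions, *Sox4* and *Sox11* of the SOXC family moved in opposite directions in *Kat6a*+/+ and *Kat6a*+/- NSPCs. In *Kat6a*+/+ NSPCs *Sox4* rose by 1.24 ± 0.15 on the log2 scale (FDR 1.93e-07) and *Sox8* by 0.48 ± 0.21 (FDR 0.0444), while *Sox11* changed by -1.49 ± 0.22 (FDR 4.72e-06) and *Sox13* by -1.51 ± 0.15 (FDR 1.15e-08). These 4 of 8 calls stand beside 72.9% of all 13590 genes, 36.7% higher and 36.2% lower. The *Sox8* call held with 18 of 24 libraries left out in turn. *Sox12* (-0.13 ± 0.12), *Sox5* (-0.45 ± 0.24), *Sox6* (0.12 ± 0.20) and *Sox9* (-0.24 ± 0.33) were not called. The SOXC genes *Sox4* and *Sox11* thus had opposite signs in the same libraries. In *Kat6a*+/- NSPCs 7 of 8 genes were called, beside 69.7% of all genes, of which 35.4% were higher and 34.2% lower. *Sox4* (1.06 ± 0.14), *Sox8* (0.60 ± 0.21) and *Sox6* (0.46 ± 0.20) were higher and *Sox11* (-1.73 ± 0.22), *Sox13* (-1.40 ± 0.17), *Sox5* (-0.71 ± 0.25) and *Sox12* (-0.26 ± 0.12) lower. The calls of *Sox12* (FDR 0.0474) and *Sox6* (FDR 0.0479) were near the threshold, held in 1 of 3 other fits each, and with 1 library left out held in 4 and 17 of 24 cases. In *Kat6a*-/- NSPCs 4 of 8 genes were called, all lower, beside 69.2% of all genes called and 33.5% called lower. These were *Sox11* (-2.35 ± 0.24), *Sox5* (-1.68 ± 0.27), *Sox13* (-1.35 ± 0.19) and *Sox12* (-0.53 ± 0.12), and the values for *Sox4* (0.27 ± 0.14, FDR 0.0946) and *Sox8* (-0.45 ± 0.21, FDR 0.0628) did not pass.

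The difference between the *Kat6a*-/- effects in the 2 conditions was tested as an interaction in a limma-voom fit of all 24 libraries, without quality weights. It was called for *Sox4* (-0.97 ± 0.20 on the log2 scale, FDR 0.00314), *Sox5* (-1.23 ± 0.36, FDR 0.0271) and *Sox8* (-0.93 ± 0.30, FDR 0.0401), 3 of 8 genes beside 13.9% of all genes called and 7.58% called lower. For each of the 3 the difference from *Kat6a*+/+ was more negative in differentiating than in proliferating NSPCs, where *Sox5* was called higher and *Sox4* and *Sox8* were not called. *Sox11* (-0.86 ± 0.32, FDR 0.0789) and *Sox12* (-0.40 ± 0.16, FDR 0.109) had the same sign and were not called. *Sox6* (-0.14 ± 0.29), *Sox13* (0.16 ± 0.24) and *Sox9* (-0.09 ± 0.46) had small estimates. Interaction estimates can differ from the gap between the effects given above, since those in differentiating NSPCs came from the weighted fit. The *Sox4* call held in every fit tried, the *Sox5* call was lost with edgeR (FDR 0.0651), without *Kat6a*-/- differentiating replicate 3 (FDR 0.0624) and without *Kat6a*+/+ proliferating replicate 2 (FDR 0.0527), and the *Sox8* call was lost with each of 7 libraries left out in turn. No gene was called for the interaction with *Kat6a*+/- (0%), where 3.03% of genes and none of the 8 had an unadjusted p under 0.05.

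Of the 24 libraries, 12 came from 6 embryos sampled in both conditions, 2 *Kat6a*+/+, 1 *Kat6a*+/- and 3 *Kat6a*-/- embryos by litter and embryo number. The tests between conditions and of the interactions took account of litter but not of this sharing of embryos. *Kat6a*+/+ replicate 2 is labelled embryo 7 of litter 4346 in proliferating and embryo 7 of litter 4364 in differentiating NSPCs, and was taken as different embryos here. Within these embryos *Sox4* was higher in differentiating than in proliferating NSPCs by 1.35 and 1.30 on the log2 scale in *Kat6a*+/+, by 0.72 in *Kat6a*+/- and by 0.41, 0.15 and 0.55 in *Kat6a*-/- NSPCs. The *Kat6a*+/- value lay between the others. *Sox8* changed by 0.82 and 0.88 in *Kat6a*+/+, by 0.24 in *Kat6a*+/- and by -1.05, -0.08 and -0.15 in *Kat6a*-/- NSPCs. For *Sox11* the values were -1.28 and -1.44 in *Kat6a*+/+, -2.28 in *Kat6a*+/- and -3.03, -2.36 and -2.24 in *Kat6a*-/- NSPCs. These values were not set against those of all genes. With 2 against 3 embryos no exact test can reach a p under 0.05, and none was made.

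**Figure D4:**
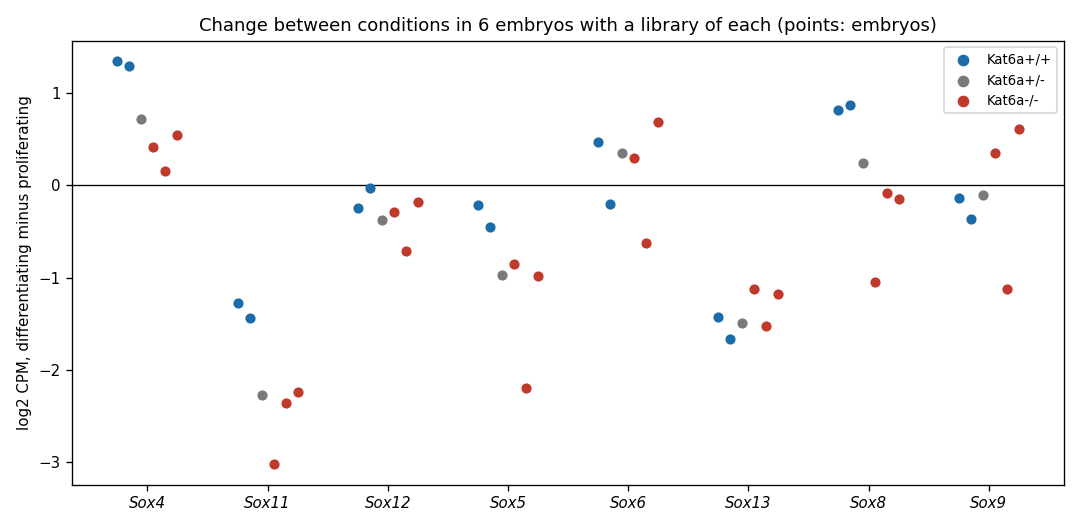
Log2 CPM in differentiating minus proliferating NSPCs of the same embryo, for each of the 8 genes in 2 *Kat6a*+/+ (blue), 1 *Kat6a*+/- (grey) and 3 *Kat6a*-/- (red) embryos. *Sox4* stands at 1.35 and 1.30 in the *Kat6a*+/+ and at 0.41, 0.15 and 0.55 in the *Kat6a*-/- embryos.

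Litter and genotype overlapped only in part, and 2 litters held both *Kat6a*+/+ and *Kat6a*-/- libraries in each condition. In differentiating NSPCs the differences of mean log2 CPM, *Kat6a*-/- minus *Kat6a*+/+ libraries of the same litter, were -1.26 and -1.31 for *Sox4*, -1.41 and -1.26 for *Sox11* and -0.58 and -0.59 for *Sox12*. The first value of each pair averages 2 *Kat6a*-/- libraries that differed. These stood at 458 and 695 CPM for *Sox4*, 61.7 and 26.7 CPM for *Sox11* and 62.8 and 89.1 CPM for *Sox12*. The *Kat6a*+/+ library of that litter stood at 1349, 108 and 112 CPM. The likeness of the SOXC differences between the litters thus holds for means only. For the other genes the differences ranged from -0.24 (*Sox8*) to -1.53 (*Sox8*). *Sox9* was at -0.36 and -1.22, but in the first litter its mean CPM was 207 in the 2 *Kat6a*-/- libraries and 204 in the *Kat6a*+/+ library. For *Sox13* 1 *Kat6a*-/- library of that litter was at 12.1 CPM, level with the *Kat6a*+/+ library at 12.02 CPM. In proliferating NSPCs *Sox11* was lower by -0.49 and -0.17 and *Sox13* by -0.64 and -0.49, and *Sox5* was higher by 0.39 and 0.05. A fit of the differentiating libraries with litter as a fixed term called *Sox4* and *Sox12* of the 8. The 12 libraries came from 7 litters, and a litter with 1 library adds nothing to the genotype difference in that fit. Its calls therefore rest on few libraries and do not measure an effect of litter.

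**Figure D5:**
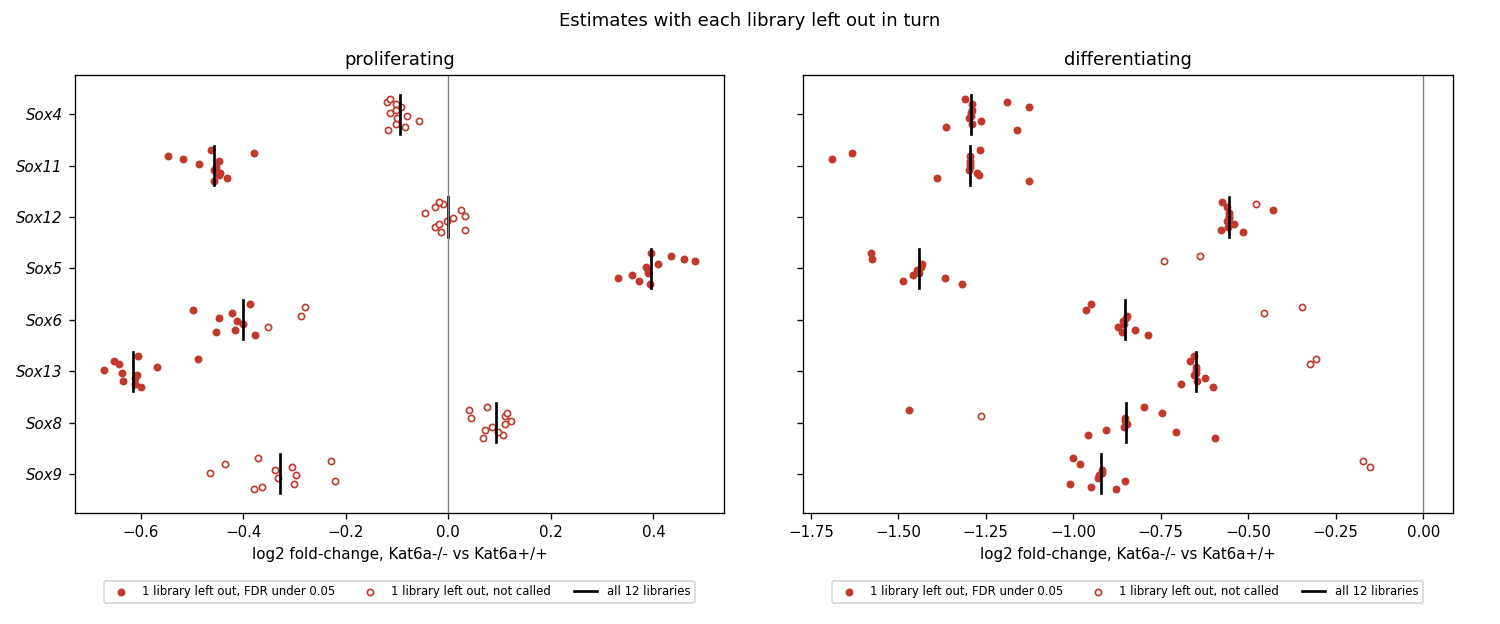
Log2 fold-change of *Kat6a*-/- against *Kat6a*+/+ NSPCs for each gene with each of 12 libraries left out in turn (points, filled where the FDR was under 0.05) and with all 12 (black line), in proliferating and differentiating NSPCs. In differentiating NSPCs *Sox4* stays between -1.36 and -1.13, whereas *Sox9* ranges from -1.01 to -0.15.

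Among 11 other SOX genes in the counts, 6 passed the filter on low counts in differentiating NSPCs, of which 4 were lower, 1 higher and 1 not called in *Kat6a*-/- NSPCs (median log2 fold-change -0.80). The 4 were SOXB genes, the family best known in neural progenitors: *Sox1* (-2.93 ± 0.29), *Sox21* (-1.29 ± 0.12), *Sox3* (-0.81 ± 0.19) and *Sox2* (-0.80 ± 0.10). In proliferating NSPCs 4 passed the filter and *Sox1* (-2.60 ± 0.27) and *Sox21* (-0.33 ± 0.09) were lower. The estimates for *Sox1* were larger than those of any of the 8 genes in both conditions, with levels of 44.1 to 82.3 CPM in differentiating *Kat6a*+/+ and 4.83 to 12.3 CPM in *Kat6a*-/- libraries. *Sox10*, the remaining SOXE gene, had at most 2.64 CPM in any library.

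Genes linked to the 3 families were read from lists of 10 each. The lists were chosen with earlier results of these data known, so their counts are descriptions and no separate support. Of all genes, 54.4% were called and 27.7% called lower in differentiating NSPCs. In proliferating NSPCs 30.0% were called, 16.2% higher and 13.8% lower. Of 10 genes linked to SOXC function in neurons, all tested in differentiating NSPCs, 8 were lower and 1 higher in *Kat6a*-/- NSPCs, with a median log2 fold-change of -0.71. *Dcx*, a microtubule protein of migrating neurons, changed by -4.51 ± 0.49, *Eomes*, a factor of intermediate progenitors, by -4.29 ± 0.35, *Elavl4*, a neuronal RNA-binding protein, by -3.98 ± 0.38 and *Stmn1* by -1.20 ± 0.13. The study itself names *Dcx*, *Eomes* and *Elavl4* among its top lower genes of this comparison. In proliferating NSPCs 5 of 8 tested were lower and 1 higher (median -0.35), led by *Dpysl3* (-0.88 ± 0.13), *Tubb3*, a neuronal tubulin (-1.19 ± 0.28), *Tead2* (-0.34 ± 0.08) and *Stmn1* (-0.36 ± 0.09). *Tubb3* also belongs to the 8 neuron markers, which did not fall together there. Of 7 tested in proliferating NSPCs, 1 was higher and 2 lower, with a median of 0.18. Their summed level was 1160 to 1312 CPM in *Kat6a*-/- and 926 to 1202 CPM in *Kat6a*+/+ libraries. Of 10 genes linked to SOXD function in cortical neurons and interneurons, 6 were tested in differentiating NSPCs, with 3 lower and 2 higher (median -1.01). *Bcl11a* (-2.05 ± 0.18) and *Bcl11b* (-2.16 ± 0.23), zinc finger factors of cortical neurons, and *Npy* (-3.54 ± 0.47), an interneuron peptide, were lower, and *Rest*, a repressor of neuronal genes, was higher (0.46 ± 0.11). In proliferating NSPCs 3 of 4 tested were lower and none higher (median -1.01).

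Of 10 glial genes linked to *Sox9* and its partner *Nfia*, all tested, 7 were lower and none higher in differentiating *Kat6a*-/- NSPCs (median -0.85), beside 27.7% of all genes called lower. *Nfib* changed by -0.67 ± 0.08, *Nfia* by -0.90 ± 0.16, *Apcdd1* by -1.07 ± 0.21 and *Fabp7*, a lipid carrier of radial glia, by -0.90 ± 0.19. In proliferating NSPCs the balance was the opposite, with 6 higher and 1 lower (median 0.39), beside 16.2% and 13.8% of all genes. *Nfix* (0.95 ± 0.15), *Zcchc24* (0.33 ± 0.07), *Mmd2* (1.33 ± 0.28) and the astrocyte filament gene *Gfap* (3.51 ± 0.73) were higher there, and *Nfia* was lower (-0.35 ± 0.09). Of 10 cartilage targets, 8 were tested in differentiating NSPCs, with 2 higher and 1 lower (median 0.67), and 6 in proliferating NSPCs, with 3 higher and 2 lower (median 0.32). *Col2a1*, the defining cartilage collagen, was at -2.35 ± 0.63 (FDR 0.0142) in proliferating and 0.80 ± 0.61 (FDR 0.287) in differentiating NSPCs. Over all genes tested the median was -0.00 in proliferating and -0.02 in differentiating NSPCs. The counts for differentiating NSPCs come from the weighted fit, which rests mostly on *Kat6a*-/- replicate 3.

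To describe which genes followed each member, log2 CPM were correlated over the 24 libraries after the mean of each condition was subtracted, among 12045 genes. The libraries share genotype groups and litters, so these values are descriptions. *Sox4* was most like *Homer2* (Pearson's r = 0.956), the Notch ligand *Dll1* (0.935) and the Notch target *Hes5* (0.927). *Sox11* was most like *Hycc1* (0.932), *Armcx4* (0.930) and *Limd2* (0.929), and *Sox12* like *Tmtc2* (0.910), *Cirbp* (0.893) and *Nrep* (0.889). Among the SOXD genes, *Sox5* was most like *Plpp3* (0.945), *Magi2* (0.920) and *Adal* (0.900), and *Sox13* like *Eif4ebp2* (0.899), *2810004N23Rik* (0.890) and *Pole3* (0.886). The 3 nearest genes of *Sox6* included *Gjc3* (0.861) and *Ankrd26* (0.855). *Sox8* was most like *Olig2* (0.891), an oligodendrocyte lineage factor, *Zmiz1* (0.872) and *Slc8a2* (0.860), and *Sox9* like *Arhgef4* (0.905), *Syt7* (0.900) and *Sowahc* (0.899). No member had another of the 8 among its 3 nearest genes. Among the members themselves r was highest for *Sox4* with *Sox12* (0.858) and lowest for *Sox9* with *Sox11* (0.0531) and with *Sox8* (0.0564), the other SOXE gene.

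The 8 genes lie on 8 different chromosomes of mm39, by GENCODE vM39: *Sox4* at chr13:29132902-29137696, *Sox11* at chr12:27384263-27392573, *Sox12* at chr2:152235531-152239983, *Sox5* at chr6:143774151-144727703, *Sox6* at chr7:115070106-115638860, *Sox13* at chr1:133310039-133352222, *Sox8* at chr17:25784634-25789726 and *Sox9* at chr11:112673009-112678586. Counts of whole genes cover all exons, with untranslated regions. Since the strand setting of the counting is not given in the sources used here, reads of genes that overlap on opposite strands are uncertain. *Sox6* shares 228 exonic bases with *1110004F10Rik*, which had 43086 counts over the 24 libraries beside 61371 for *Sox6*. *Sox4*, *Sox9* and *Sox13* share exonic bases with genes of at most 488 counts, and *Sox11*, *Sox12* and *Sox8* with no counted gene on the opposite strand. *Sox5* shares exonic bases with antisense transcripts that were not counted.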

How the data were processed

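RNA of 24 NSPC cultures, each from 1 embryo, was sequenced after stranded library preparation from 200 ng of RNA. The authors aligned reads to mm39 with Rsubread and deposited raw counts per gene, for which featureCounts was run on a strict RefSeq annotation. Software versions for the RNA sequencing and the strand setting of the counting are not given in the sources used here. Total counts were 7826660 to 40838203 per library, and depth limits the precision of low counts.

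Samples were grouped by the genotype and condition in the labels. Protein-coding genes (21030 of 26359 with a biotype, with 52 genes of no biotype left out) that passed the default filterByExpr of edgeR 4.0.16 were kept, *Xist* and Y genes were removed, and TMM factors were computed. Following the study's methods, proliferating libraries were fitted with limma-voom (limma 3.58.1, R 4.3.3) and a random litter effect (consensus correlation 0.287), and differentiating libraries with limma-trend on log2 CPM (prior count 2) with library quality weights. The 24 libraries were also fitted together by limma-voom with a litter effect (correlation 0.00365), for the contrasts between conditions and the interactions. This joint fit had no quality weights and no term for the embryo. Moderation was robust, and FDR are Benjamini-Hochberg values over all genes tested. Printed CPM and RPKM carry no weights and use TMM factors computed over all 24 libraries. The fits within a condition use factors computed over the 12 libraries of that condition. Ratios of means and overlaps of libraries can therefore differ from fitted fold-changes. The scripts were tested on simulated counts.

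The alternatives were edgeR's quasi-likelihood test, DESeq2 1.42.0, no filter, library totals in place of TMM factors, litter as a fixed term, a replicate block, no quality weights, an unweighted litter block and each library left out. The 8 genes and all gene lists were chosen with earlier results of these data known. The 8 genes were described in every comparison, of each list at most the 4 genes with the smallest p and its defining gene were named, and the 3 most correlated genes were given per member, of which 1 is not reported here. No 2 libraries of a group were alike within sampling noise (lowest chi-square per degree of freedom 5.15).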

Additional observations from a re-analysis of the deposited data

Results flagged for a closer look

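In 4 of 48 groups of 4 libraries, 1 library stood apart by Dixon's criterion, which by chance alone happens in about 1 in 20 groups. *Sox4* was at 613 CPM in proliferating *Kat6a*+/+ replicate 1, against 540.5 to 549.7 CPM in the other libraries of that group. *Sox4* was at 1332 CPM in differentiating *Kat6a*+/- replicate 3, against 985 to 1030.5 CPM. *Sox13* was at 35.8 CPM in proliferating *Kat6a*+/- replicate 2, against 26.3 to 27.1 CPM. *Sox13* was at 12.1 CPM in differentiating *Kat6a*-/- replicate 2, against 6.95 to 7.62 CPM, and this is the library with the highest summed astrocyte markers of its group.

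The effect of *Kat6a*-/- differed between differentiating and proliferating NSPCs by the interaction test for *Sox4* (-0.97 on the log2 scale), *Sox5* (-1.23) and *Sox8* (-0.93). The condition goes with the extraction kit, and the summed dividing cell markers fell from 2866 to 3248 CPM in proliferating to 652 to 1094 CPM in differentiating *Kat6a*+/+ libraries and from 1636 to 2905 to 95.9 to 258 CPM in *Kat6a*-/- libraries. Their part in these differences was not tested.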

How the results depend on the processing

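For differentiating *Kat6a*-/- against *Kat6a*+/+ NSPCs, 8 of the 8 SOX genes were called in the weighted fit, and 4 with edgeR, 4 with DESeq2, 4 without quality weights, 4 with an unweighted litter block and 2 with litter as a fixed term. *Sox4* was called in each of these fits. Without weights and without *Kat6a*-/- replicate 3, a setting chosen after seeing the data, 3 were called, and without weights and without replicate 2, likewise chosen after seeing the data, 8 were called. With 1 library left out the count was 3 to 8, with 3 without *Kat6a*-/- replicate 1 or replicate 3. Over all genes the calls fell from 7258 to 3244 with edgeR, 4076 with DESeq2, 3097 without weights, 2806 with the litter block and 1785 with litter as a fixed term, and to 1212 and 939 without *Kat6a*-/- replicates 1 and 3. Against *Kat6a*+/- NSPCs, 7 genes were called in differentiating NSPCs, and 2 with edgeR, 3 with DESeq2, 3 without the filter, 0 with litter as a fixed term, 2 without weights, 2 with the litter block, 1 and 3 without weights and without *Kat6a*-/- replicate 3 or 2, and 0 to 7 with 1 library left out (0 without *Kat6a*-/- replicate 1 or 3). In proliferating NSPCs the count of 2 became 1 with edgeR, DESeq2, no filter and litter as a fixed term, and 1 to 4 with 1 library left out (4 without *Kat6a*+/- replicate 3). Over all genes the proliferating calls against *Kat6a*+/+ fell from 3686 to 1936 with litter as a fixed term and to 2317 without *Kat6a*+/+ replicate 1. Over all genes the calls against *Kat6a*+/- fell from 1813 to 951 with edgeR in proliferating and, in differentiating NSPCs, from 5007 to 1656 with edgeR, 2621 with DESeq2, 3031 without the filter, 1616 without weights, 1406 with the litter block, 386 with litter as a fixed term and 243 at the lowest with 1 library left out. For *Kat6a*+/- against *Kat6a*+/+ NSPCs, DESeq2 called 28 genes in proliferating and 8 in differentiating NSPCs, where limma called 0, and limma called 301 in differentiating NSPCs without *Kat6a*+/- replicate 3. The interaction with *Kat6a*-/- was called for 1895 of all genes, and for 3520 without *Kat6a*-/- differentiating replicate 2. For the interaction with *Kat6a*-/- the count of 3 became 5 with library totals and 1 to 4 with 1 library left out (1 without *Kat6a*+/+ proliferating replicate 2). The cause of these changes was not tested, beyond what fewer libraries imply.

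Of the called differences none changed sign. Estimates near 0 that changed sign were those of *Sox12* in proliferating *Kat6a*-/- against *Kat6a*+/+ NSPCs (0.028 with litter as a fixed term, -0.045 to 0.034 with 1 library left out), *Sox11* in proliferating *Kat6a*+/- against *Kat6a*+/+ NSPCs (-0.018 with edgeR, -0.017 with DESeq2, -0.0019 without the filter, -0.040 to 0.039 with 1 library left out), *Sox4* in proliferating *Kat6a*-/- against *Kat6a*+/- NSPCs (0.019 with litter as a fixed term, -0.082 to 0.089), *Sox9* in the interactions with *Kat6a*-/- (0.077 with edgeR, -0.52 to 0.24) and *Kat6a*+/- (-0.00075 with edgeR, -0.012 with library totals, -0.15 to 0.14), and *Sox6* between conditions in *Kat6a*-/- NSPCs (0.043 with edgeR, -0.20 to 0.15). With 1 library left out, sign changes also occurred in proliferating NSPCs for *Sox12* in *Kat6a*+/- against *Kat6a*+/+ (-0.080 to 0.021) and in *Kat6a*-/- against *Kat6a*+/- (-0.039 to 0.085) and for *Sox9* in *Kat6a*-/- against *Kat6a*+/- (-0.29 to 0.010), for the interactions of *Sox13* with *Kat6a*-/- (-0.10 to 0.24) and *Kat6a*+/- (-0.028 to 0.18) and of *Sox8* with *Kat6a*+/- (-0.051 to 0.26), and for *Sox9* between conditions in *Kat6a*-/- NSPCs (-0.73 to 0.029).

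Replicate numbers are shared between groups, but of 60 same-numbered pairs of libraries 11 had deviations from the group means correlated above 0.1 (median r -0.028), so the numbers are not taken as a pairing. A fit with a replicate block called 1 of the 8 genes in proliferating and 3 in differentiating *Kat6a*-/- against *Kat6a*+/- NSPCs, and *Sox11* in proliferating *Kat6a*+/- against *Kat6a*+/+ NSPCs was at -0.0077. Between conditions the replicate block called 5 genes in *Kat6a*+/- and 5 in *Kat6a*-/- NSPCs, and it left the counts of the other comparisons as they were.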
